A study of Mus musculus with 6 samples.

Results

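Of the 2482 bins of 1 Mb that cover the mouse autosomes on mm9, 251 were poorly covered in a Hi-C map of hybrid embryonic fibroblasts. A bin was counted as poorly covered if the deposited map gave it no value, or if it was joined to fewer bins on other chromosomes than 50% of the median bin. That median was 1087 partner bins over the 2573 bins with a value on any chromosome, which put the threshold at 543.5 partners. By this rule 69 autosomal bins had no value and 182 had a value but too few partners, and the remaining 2231 autosomal bins are called the other bins. The labels list fibroblasts of a 129xCast hybrid background from 2 embryos, with 3 technical replicates each. All 6 samples belong to 1 group, with no treatment. Only 1 pooled map was analysed, so there is no spread between samples, and which of the 6 libraries it pools is not stated. The mapped cells are named by their labels alone, because contact maps hold no expression of fibroblast markers. The bins were selected on their listed partners in this map, so their low coverage is given below as a description without a test.

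Hi-C joins crosslinked DNA ends that lie close together in the nucleus, and a bin gathers contacts only where cut ends can be sequenced and placed. Reads from repeated or missing stretches of an assembly cannot be placed at a unique position. In a hybrid, an end can moreover be given to a parent only where it covers a difference between the parental genomes. Balancing, the step named iced in the deposited table, multiplies each contact by a factor for each of its bins so that all bins reach about the same sum. Bins with few contacts therefore receive large factors. Mouse chromosomes are telocentric, and the mm9 assembly opens each of them with a gap next to the centromere.

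Whole contacts were recovered from the balanced values, as all 1365118 listed pairs of different bins were a whole number of contacts times the factors of their bins, within 0.01. The 182 poorly covered bins with a value had 1 to 542 partners on other chromosomes, with a median of 331.5. The other bins had 547 to 1555, with a median of 1119. In recovered contacts with other chromosomes the poorly covered bins had a median of 370.5 (range 1 to 657) and the other bins 1610 (629 to 2713). The lower end was sparse. There were 28 poorly covered bins with under 100 partners, 18 with under 30 and 8 with under 10. Of listed pairs on different chromosomes with a poorly covered bin, 87.5% rested on 1 contact, against 66.2% for pairs of other bins.

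**Figure D1:**
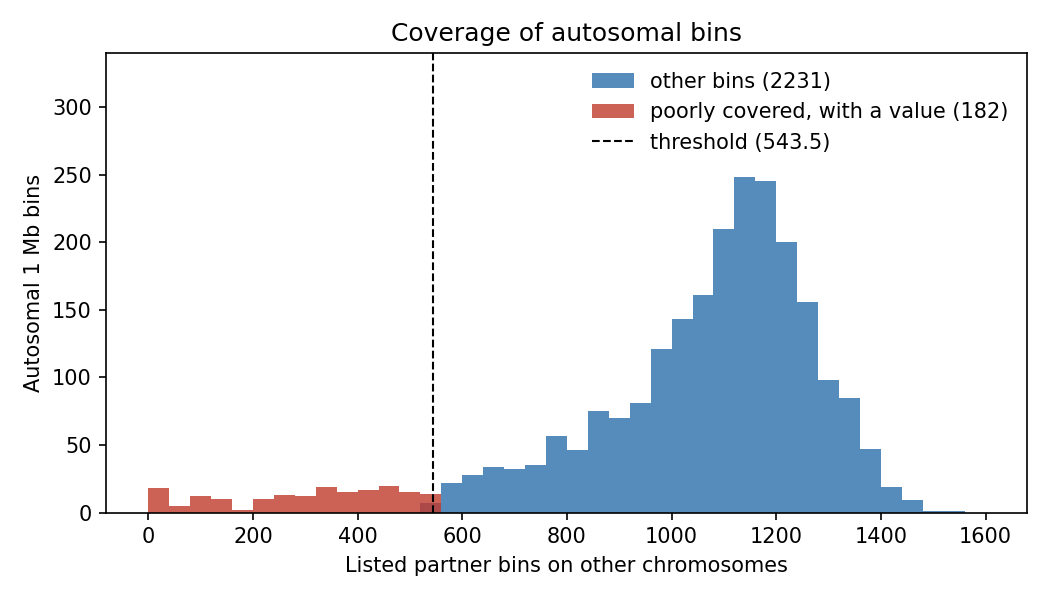
Number of autosomal 1 Mb bins (vertical axis) by the count of listed partner bins on other chromosomes (horizontal axis), for the 182 poorly covered bins with a value and the 2231 other bins. The dashed line is the threshold of 543.5 partners, and the poorly covered bins fill the whole range below it, from 1 to 542 partners.

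The threshold cut through a continuous range of coverage. The 5 bins just inside it had 533 to 542 partners, the nearest being the bins of chromosome 17 that start at 24000001 and 35000001, with 542 each. The 5 bins just outside had 547 to 553. The nearest was the bin of chromosome 12 from 116000001 to 117000000, at 547 partners, inside the immunoglobulin heavy chain locus. Within 5% of the threshold there were 15 bins inside and 13 outside. A contact in these 10 bins nearest the threshold counted for 2.32 to 2.65 times the median of the other bins, so both sides were weighted alike.

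Contacts within the same chromosome were not used to choose the bins, although they come from the same libraries. The name of the table may mean that it holds only contacts between a Cast and a 129 end. In that case all same-chromosome, neighbour and within-bin values given here are contacts between homologs, not along 1 chromosome. The labels do not settle this. The other bins had a median of 1610 contacts with other chromosomes, 89 with other bins of their own chromosome and 1 within the bin. Whether the map holds contacts along 1 chromosome was not tested. Same-chromosome contacts of the poorly covered bins were low as well. The poorly covered bins had a median of 22.5 contacts with other bins of their own chromosome (range 0 to 64), and the other bins had 89 (14 to 195). The share of autosomal bins under 50% of their chromosome's median, taken over its other bins alone, was 9.7%. Among the poorly covered bins 175 of 182 were under that level (96.2%), and among the other bins 59 of 2231 (2.64%). None of the 182 reached that median of its chromosome. The highest was the bin of chromosome 12 from 20000001 to 21000000, with 64 contacts or 0.859 times the median. No same-chromosome contact was listed for 5 bins, which had between 1 and 9 partners elsewhere.

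Bins without any value lay mostly at the low-coordinate end. On all 19 autosomes the first 3 bins had no value, which accounts for 57 of the 69. The other 12 lay inside 6 chromosomal stretches. The longest was on chromosome 7, where the 6 bins from 40000001 to 46000000 had no value. Their neighbours on either side had 146 and 253 partners. The rest were the bins of chromosome 1 from 86000001, chromosome 2 from 175000001, chromosome 7 from 8000001 and chromosome 14 from 5000001, and 2 adjoining bins of chromosome 8 from 20000001 to 22000000. Balanced tables list no raw depth for such bins, so how many contacts they held before balancing is unknown.

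Outside the first 3 bins, 194 of 2425 autosomal bins were poorly covered, a share of 8%. Just past the empty bins the share was 4 of 38 bins at the 4th and 5th position. It was 9 of 95 from the 6th to the 10th. From the high-coordinate end it was 11 of 19 for the last bin, 7 of 76 for the next 4 and 4 of 95 for the 5 after that. With each chromosome split at its middle, the low-coordinate sides held 124 such bins of 1206 (10.3%) and the high-coordinate sides 70 of 1206 (5.80%). The low-coordinate side held more on 12 autosomes, the high-coordinate side more on 5, and 2 were even. Chromosome 7 alone had 20 on its low-coordinate side and 2 on the other.

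**Figure D2:**
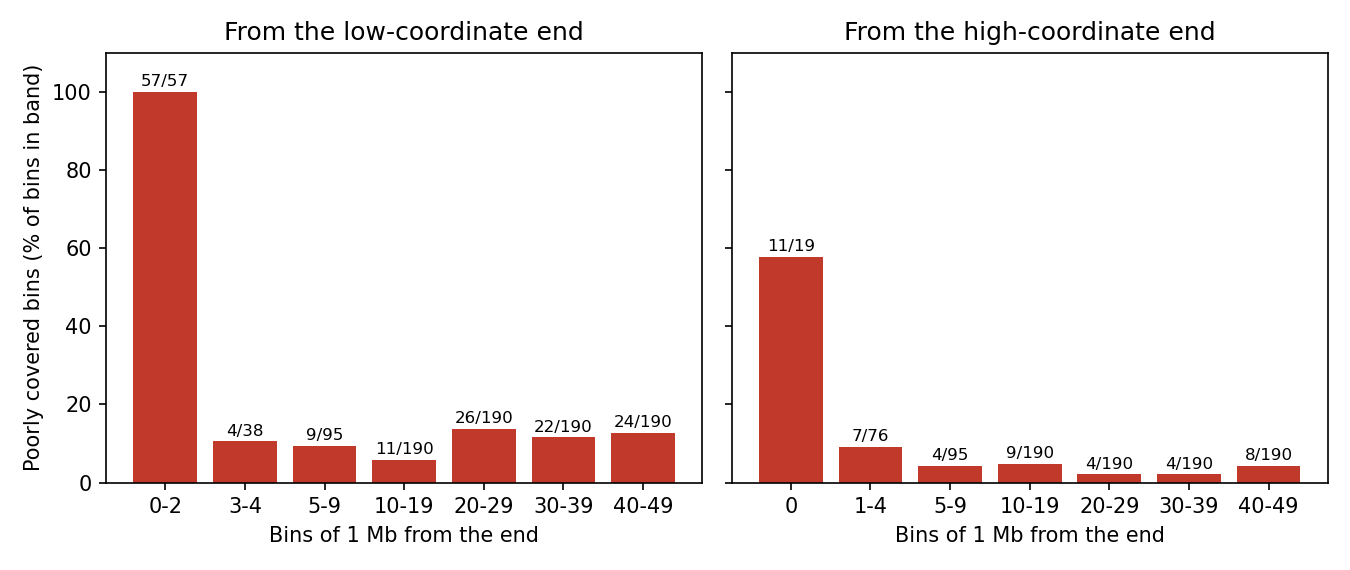
Share of bins that were poorly covered (vertical axis, %) by distance in 1 Mb bins from the low-coordinate end (left) and the high-coordinate end (right), summed over 19 autosomes, with counts above the bars. All 57 bins in the first 3 positions and 11 of 19 last bins were poorly covered, and shares in the inner bands ran from 2.11% to 13.7%.

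The last bin of a chromosome is shorter than 1 Mb, and the counts there follow its length in part. The poorly covered last bins were 7.62% to 53.7% of a full bin, and the 8 others were 49.5% to 99.3%. Divided by length, 6 of the 11 reached the threshold, among them chromosome 17 with 350 partners in 272651 bases (1284 per Mb) and chromosome 16 with 339 in 319150 bases (1062 per Mb). The other 5 stayed below it. These were chromosome 19 at 158 partners per Mb, chromosome 9 at 210, chromosome 12 at 357, chromosome 14 at 421 and chromosome 7 at 444. On chromosome 19 the 3 full bins before the last were poorly covered too, with 355, 105 and 249 partners.

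Chromosomes differed widely in the share of bins lost beyond the first 3. The median was 6.98% and the range 0% to 16.2%. Chromosome 2 had the highest share, with 29 bins (16.2%), followed by chromosome 7 with 22 (14.7%), chromosome 17 with 13 (14%) and chromosome 14 with 17 (13.8%). Chromosome 18 had none and chromosome 10 had 1 with 527 partners. The low shares went with the highest typical coverage only in part. Chromosomes 13 and 18 had the highest median partner count, 1171.5, and chromosome 13 still had 6 poorly covered bins.

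Poorly covered bins were often adjacent. The 251 formed 112 runs. Of these, 19 began at the low-coordinate end and 11 reached the high-coordinate end. The 82 interior runs held 170 bins. Single bins made up 41 of the interior runs and pairs 21, and the 20 runs of 3 or more held 87 bins. At the low end the run extended past the first 3 bins on 3 autosomes. On chromosomes 16 and 19 it took in 1 further bin, with 512 and 439 partners. On chromosome 14 it reached 9000000, and its bins from the 4th on had 1, 27, no value, 27, 99 and 348 partners.

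The longest interior run lay on chromosome 2 from 81000001 to 91000000. In order, its 10 bins had 416, 414, 480, 472, 407, 363, 119, 270, 29 and 461 partners. The 5 bins from 85000001 to 90000000 span the large olfactory receptor cluster of this chromosome, and the 4 bins below them had 414 to 480. Chromosome 2 held 3 further runs of 3 or more bins. The bins from 39000001 to 43000000 had 169 to 437 partners, those from 118000001 to 122000000 had 238 to 474, and those from 175000001 to 178000000 had no value, 41 and 331. A run of 2 bins from 44000001 to 46000000 had 331 and 328.

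Chromosome 7 held 3 such runs with near-empty bins. From 7000001 to 11000000 the partner counts were 153, no value, 3 and 360. From 20000001 to 24000000, in a cluster of vomeronasal receptor genes, they were 323, 8, 1 and 11. From 39000001 to 47000000 only the outer bins had a value. On chromosome 12, from 18000001 to 25000000, 6 of 7 bins were poorly covered, with 102, 219, 445, 94, 9 and 19 partners. The bin between them, from 21000001 to 22000000, had 553 and stood just outside the threshold. On chromosome 14 the bins from 42000001 to 45000000 had 109, 25 and 212.

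On chromosome 15, from 18000001 to 25000000, partner counts were 20, 136, 372, 327, 445, 129 and 335. On chromosome 17, from 35000001 to 42000000, they were 542, 369, 417, 271, 112, 65 and 258. The first 2 of these bins hold part of the major histocompatibility complex. The remaining runs of 3 or more had 147 to 464 partners on chromosome 1 (28000001 to 32000000) and 19 to 407 on chromosome 3 (59000001 to 63000000). On chromosome 4 they had 394 to 431 (35000001 to 38000000) and 157 to 376 (143000001 to 147000000). Chromosome 5 had 265 to 467 (83000001 to 86000000), and chromosome 9 had 350 to 531 (11000001 to 14000000). On chromosome 8 the bins from 20000001 to 23000000 had no value, no value and 321, and those from 72000001 to 75000000 had 381, 343 and 312.

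**Figure D3:**
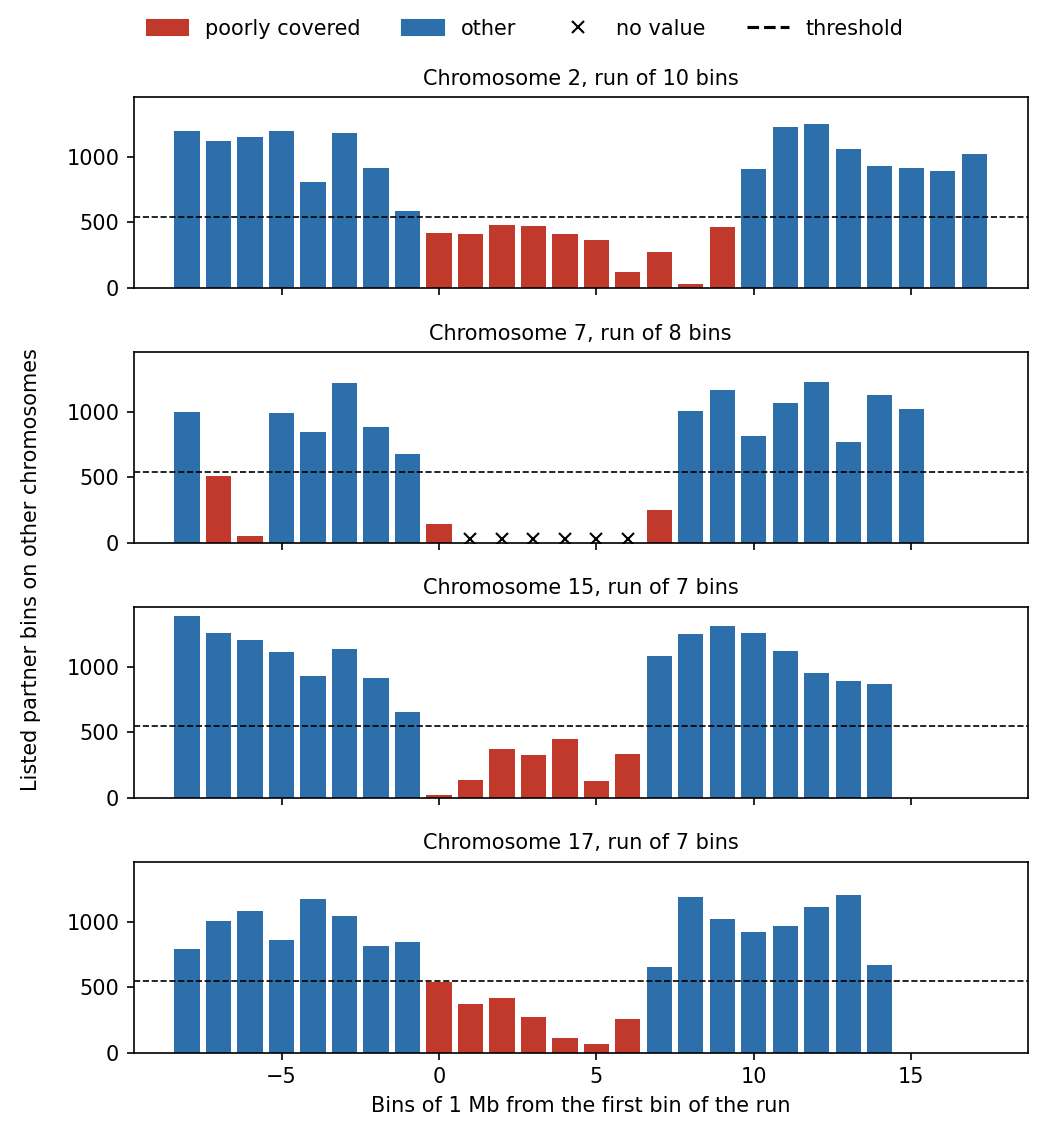
Listed partner bins on other chromosomes (vertical axis) for the 4 longest runs away from the low-coordinate ends, with the bins on either side; the horizontal axis counts 1 Mb bins from the first bin of the run. Crosses mark bins with no value. The dashed line is the threshold of 543.5; the run on chromosome 7 is empty in its 6 inner bins, whereas every bin of the other 3 runs kept a value.

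Coverage was also reduced beside the poorly covered bins. Leaving aside the first 3 bins of each chromosome, the 173 other bins next to a poorly covered bin had a median of 905 partners (interquartile range 699 to 1066). At a distance of 2 bins the median was 1087 and at 3 bins 1093. Beyond 10 bins it was 1132 (1019 to 1216.5). The adjoining bin therefore held most of the difference.

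Duplicated gene clusters were listed by their approximate place on mm9, in whole Mb, from general knowledge and not from an annotation of that build. Of the 67 bins in the 26 listed clusters, 34 were poorly covered (50.7%). The share was 10.1% over all autosomal bins and 8% over those outside the first 3 bins of each chromosome. The clusters were listed with earlier results of these data known, so the difference is a description. With every cluster widened by 1 bin on each side the share was 45 of 115 bins (39.1%). The clusters were uneven, as 15 held at least 1 poorly covered bin and 11 held none, and in 8 every bin was poorly covered. Most poorly covered bins lay outside the listed clusters. Outside the first 3 bins of each chromosome, 160 of 194 were in no listed cluster. The list is partial. It holds no cluster of vomeronasal type 2 receptor genes, of which RefSeq lists 52 on chromosome 7, 32 on 17 and 11 on 5 (build GRCm38). Whether the 160 bins hold other duplicated genes was not tested.

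Families of chemosensory receptors, which detect odours and pheromones, differed between sites. The olfactory receptor cluster of chromosome 2 had all 5 bins below the threshold, with 29 to 407 partners. In the clusters around the beta-globin genes on chromosome 7, 1 of 5 bins was below it, with 450, and the median was 905. The clusters of chromosome 9 (828 to 1147 partners in 3 bins) and chromosome 19 (1090 and 1201 in 2 bins) had none. RefSeq's table for build GRCm38 lists 377 olfactory receptor genes on chromosome 2, 294 on 7, 179 on 9 and 91 on 19. Vomeronasal type 1 receptor genes number 126 on chromosome 7 and 36 on chromosome 13 in that table. All 4 bins of the listed cluster on chromosome 7 were poorly covered, down to 1 partner, while the bin on chromosome 13 had 548, just above the threshold. The Zscan4 and Vmn1r genes nearer the low-coordinate end of chromosome 7 lay in bins with 569 and 824 partners.

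Clusters of KRAB zinc finger genes, which encode DNA-binding repressors of transposable elements, had 7 of 11 bins below the threshold. On chromosome 2 these were all 3 bins between Edn3 and Phactr3, and on chromosome 4 both bins below Mfn2, with 157 and 193 partners. On chromosome 13 they were 2 of 6, the lower having 9. Among clusters of immune genes 8 of 20 bins were poorly covered. The defensin cluster of chromosome 8, whose genes encode antimicrobial peptides, had 3 of 4 bins below the threshold and no value in 2. The Skint genes of chromosome 4, the Klra receptors of natural killer cells on chromosome 6 and the T cell receptor alpha genes on chromosome 14 had 1 of 2 bins below it each, with 127, 400 and 374 partners. Both bins listed for the histocompatibility complex, which hold part of it, were below the threshold, at 542 and 369. The bin just before them, from 34000001, had 843. The immunoglobulin kappa genes on chromosome 6 (744 to 1085) and the heavy chain genes on chromosome 12 (547 to 678) had none below it. RefSeq lists 162 and 183 variable genes of these loci. The bin of the type I interferon genes on chromosome 4 had 965. The Sp100 cluster of chromosome 1 was listed at 87000001 to 88000000, where the bin had 671 partners; the bins just below had 1 partner and no value.

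Among the remaining families, both bins of the major urinary protein genes on chromosome 4, which encode pheromone carriers, were poorly covered, with 100 and 461 partners. All 5 bins of the alpha-takusan family on chromosome 14 were, with a value in 4 of them (1 to 99 partners). The Pramel bin on chromosome 4 had 376 partners and 1 of 2 bins of the pregnancy-specific glycoprotein genes on chromosome 7 had 466. The Speer, prolactin and placental cathepsin clusters had no poorly covered bin.

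Low coverage raised the weight of a contact. A contact between a poorly covered bin and a typical other bin had a median balanced value of 3.42, and a contact between typical other bins 0.804, a ratio of 4.26. The factor exceeded 10 times that of the median other bin in 41 of 182 poorly covered bins and 100 times in 10. These 182 bins held 1.80% of contact ends on the autosomes and, since balancing sets equal sums, 7.54% of the balanced signal. In an other bin, contacts with poorly covered bins made up a median of 1.72% of contacts and 6.42% of the balanced sum. The highest share of contacts was 3.39%, and the highest share of the balanced sum 98.3%.

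That extreme came from 3 poorly covered bins with a single listed pair, which joined each to a well-covered bin. With 1 listed pair any whole number of contacts could be recovered, so the count of 1 contact in these 3 bins is the smallest possible and is assumed. The same holds for any bin whose listed pairs all have equal counts, since the bin's factor takes up a common multiple. The first is chromosome 1 from 85000001 to 86000000, whose contact with chromosome 15 from 72000001 to 73000000 had a balanced value of 1500, the highest in the table. The second is chromosome 7 from 22000001 to 23000000, joined to chromosome 18 from 77000001 to 78000000 at 1495. The third is chromosome 14 from 3000001 to 4000000, joined to X from 75000001 to 76000000 at 1485. Each of these contacts took 98.0% of the balanced sum of its well-covered partner, although those partners held 2038, 1614 and 1160 contacts with other chromosomes. Balancing had not reached equal sums here. The partners summed to 1530, 1524 and 1514 and the single-pair bins to the values above, against a median of 1521. Equal sums would need the 1 pair to hold all of its partner's sum. The 98.0%, and the partner values and factor changes below, therefore depend on where balancing stopped.

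The balanced values of the 3 partner bins were accordingly compressed. The bin of chromosome 15 had a median of 0.0148 over its listed pairs with other autosomal bins on different chromosomes, that of chromosome 18 had 0.0181 and that of X 0.0233. The median of such pairs among all other bins was 1.03. The values of these partners were therefore 1.45%, 1.76% and 2.27% of the usual level. None of the partners was itself poorly covered, with 1326, 1146 and 884 partner bins, so a coverage filter keeps them while it drops the bins that took up their sum.

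**Figure D4:**
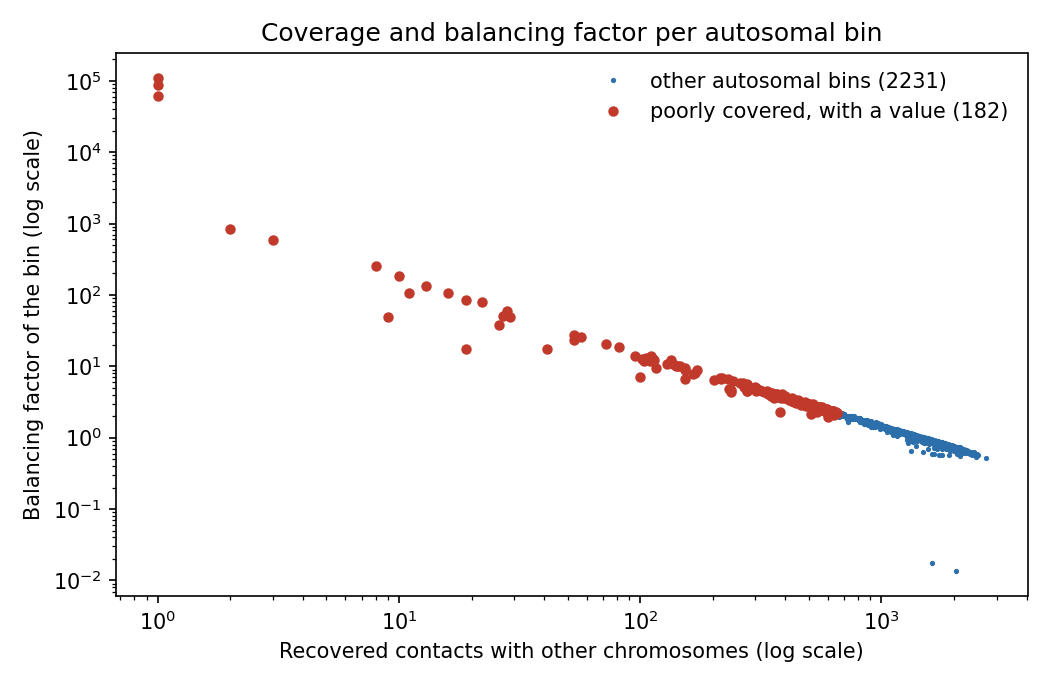
Balancing factor of each autosomal bin (vertical axis, log scale) against its recovered contacts with other chromosomes (horizontal axis, log scale). The 3 bins with a single listed pair, drawn at 1 contact, stand at the upper left, and the 2 blue points far below the main line are their autosomal partners on chromosomes 15 and 18.

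Balancing was repeated on the recovered contacts without the 251 bins. The factor of the chromosome 15 partner was then 54 times as large, that of X 51.5 times and that of chromosome 18 49.9 times. Of the 2231 other bins, 10 moved by over 1.2 times, these 2 autosomal partners included, and 41 by over 1.1 times. The next in size were chromosome 12 from 63000001 (1.55 times), chromosome 2 from 106000001 (1.5 times) and chromosome 5 from 76000001 (1.48 times). All 3 had been joined by 1 contact each, an assumed count, to the bin of chromosome 5 from 95000001 to 96000000. These were its only listed pairs. With the 3 single-contact bins alone left out, the other bins that moved by over 1.2 times were the same 2 partners on chromosomes 15 and 18.

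The highest values between different autosomes were taken up by these bins. The rule chose bins with few partners and balancing gives such bins large factors, so these shares follow from the rule. They are given as a description. Of listed pairs on different autosomes 4.5% included a poorly covered bin. Of the highest 0.01% of values, 118 of 118 did, and 94.1% of these rested on 1 contact. Of the highest 0.1% it was 1179 of 1181 and of the highest 1% 9932 of 11811 (84.1%). After the pairs of the chromosome 1 and chromosome 7 bins above, the highest between different autosomes were the contacts of chromosome 5 from 95000001 with chromosome 12 from 63000001 (529) and chromosome 2 from 106000001 (490). The fifth joined chromosome 7 from 9000001 with chromosome 5 from 48000001 (408). All 5 rested on 1 recovered contact. In each, the listed pairs of the poorly covered bin had equal counts, so 1 is the smallest possible count and is assumed. The highest pair on different autosomes without a poorly covered bin had 20.6, on 8 contacts.

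Pairs 1 Mb apart on an autosome showed the same weighting. Those with a poorly covered bin held 104 of 2385 contacts (4.36%) and 51.9% of the balanced signal. A single contact between the bins of chromosome 12 that start at 23000001 and 24000001, with 9 and 19 partners, had a value of 843 and made up 20.2% of that signal. The 2 next, on chromosome 14 between 42000001 and 45000000, added 8.43% and 4.35% on 1 contact each.

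Recovered contacts between neighbouring poorly covered bins were set beside what their totals on other chromosomes gave. The expected number for a pair multiplied the 2 bins' own factors, which had been set so that those totals were met. Bins 1 Mb apart that were both poorly covered had 29 contacts where 2.55 were expected, a ratio of 11.4 (95% Poisson interval 7.61 to 16.3, 83 pairs). Where 1 was poorly covered, the ratio was 3.04 (2.39 to 3.81, 75 contacts). Where neither was, it was 1.47 (1.41 to 1.53, 2281 contacts). The expected numbers rest on the contacts with other chromosomes that also chose the bins, so the order of these 3 ratios is a description. The intervals treat contacts as independent, cover counting error only and leave out PCR copies and differences between pairs. At 2 Mb the ratio of poorly covered pairs was 7.58 (3.78 to 13.6), from 3 to 5 Mb 5.23 (2.7 to 9.14) and from 6 to 10 Mb 3.87 (1.77 to 7.35). From 11 to 50 Mb it was 0.745 (0.385 to 1.30), with 12 contacts.

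A few places supplied these contacts. Of the 83 pairs 15 had any contact. The bins of chromosome 12 from 19000001 to 21000000 had 9 where 0.0341 were expected, and those of chromosome 8 from 73000001 to 75000000 had 4 where 0.0383 were expected. Without the chromosome 12 pair the ratio was 7.94 on 20 contacts. Leaving out each autosome in turn gave 7.98 to 13.2, the lowest without chromosome 12. Within a single bin the poorly covered bins had 93 contacts where 4.16 were expected (22.4, 18 to 27.4), with 50% of the product of a bin's factors as the expectation. No within-bin contact was found in 146 of the 182, nor in 946 of the 2231 other bins. Among the poorly covered bins, that of chromosome 12 from 22000001 to 23000000 had the most, with 9. Those of chromosome 13 from 68000001 and chromosome 17 from 36000001 had 8 each. The other bins had a ratio of 3.26 (3.14 to 3.38). The within-bin expectations also rest on the contacts with other chromosomes, which chose the bins. A higher ratio in the poorly covered bins is therefore partly built in, and the difference is a description. The intervals again cover counting error only.

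Between different autosomes the poorly covered bins had 534 contacts over 15322 pairs where 535.7 were expected, a ratio of 0.997 (0.914 to 1.08). The factors behind the expected numbers were set to meet these same totals, which holds such ratios near 1, so this value is no check of the ratios within a chromosome.

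**Figure D5:**
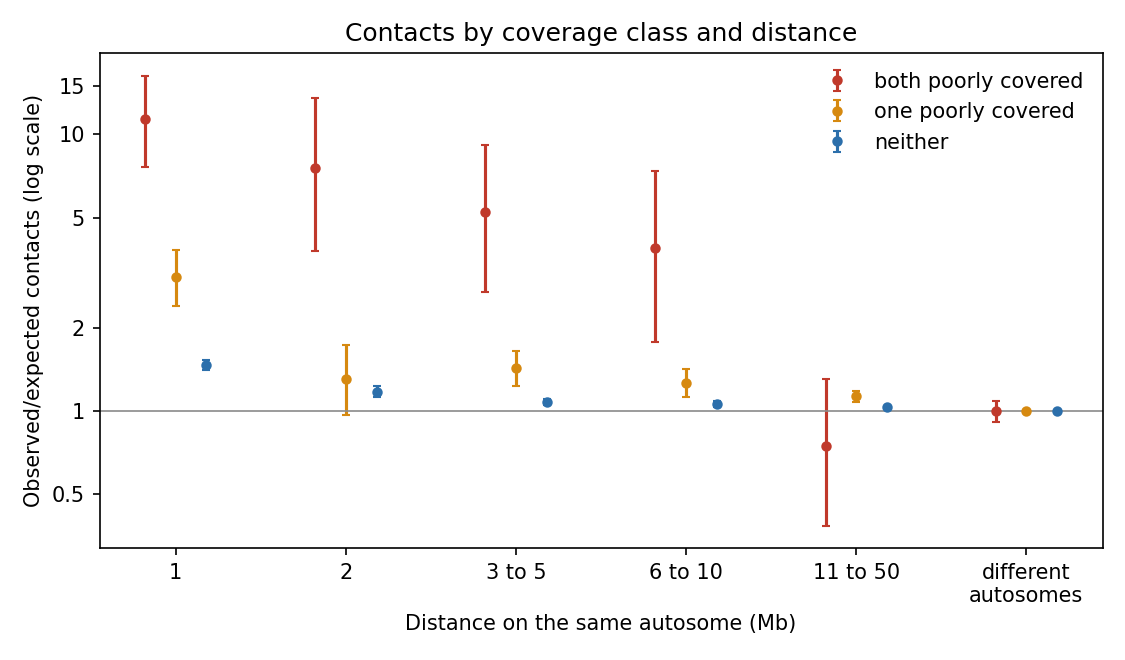
Observed over expected recovered contacts (vertical axis, log scale) by distance on the same autosome and for different autosomes (horizontal axis), for pairs with both, one or neither bin poorly covered. Bars are 95% Poisson intervals; at 1 Mb the ratios were 11.4, 3.04 and 1.47, and between different autosomes all were close to 1, where the fit holds them.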

How the data were processed

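The libraries were cut with HindIII and ligated in dilution, per the labels' protocols. The authors deposited a sparse table of balanced signal for pairs of bins and a bin key, and its name says that libraries were pooled. HiC-Pro 2.7.8, bedtools and mm9 appear in the submitters' processing notes. No aligner, read filter or list of pooled libraries is given in these sources. The table's name pairs CAST with 129 and may mean contacts between unlike parental alleles, which the labels do not state.

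Bin factors and contacts were recovered by alternating medians. On simulated data 100% of 602117 pairs were recovered, and a ratio of 10 between poorly covered neighbours came back as 11 (95% Poisson interval 8.12 to 14.5). The simulated poorly covered bins were drawn at random and had moderately reduced coverage. None was near-empty or chosen on its counts, so recovery in such bins and the effect of that choice were not tested. Expected contacts used factors fitted to each bin's contacts on other chromosomes. Intervals are exact Poisson at 95%. Coordinates are 1-based on mm9.

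Every interior run of 3 or more bins, the 5 bins on each side of the threshold, the 5 bins with the fewest partners, the 5 highest pairs and each listed cluster were to be named. The bins, the clusters and these rules were chosen with earlier results of these data known. Other bins and pairs named here were chosen after their values were seen. Alternatives were other thresholds, coverage measures, cluster widths and chromosomes left out, and the results without the chromosome 12 pair or with only single-contact bins left out were added after seeing the data. Sequence was not used here. Software was numpy 2.4.6, pandas 2.3.3 and scipy 1.17.1 under Python 3.11.15.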

Additional observations from a re-analysis of the deposited data

How the results depend on the processing

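No replicate could be left out or paired, because the libraries were pooled, and depth limits any single pair of bins. The number of poorly covered bins was 199 with a threshold at 40% of the median, 315 at 60%, 304 with contacts in place of partners, 255 with the median over autosomes and 245 with partners per Mb, and 571 at 80%. At 80% there were 247 runs in place of 112, and 77.6% of the bins in listed clusters were poorly covered, beside 23% of all autosomal bins. The ratio of contact weights, 4.26, was 5.30, 3.33 and 2.08 at 40%, 60% and 80%, and 3.33 from mean balanced values of listed pairs. Of the highest 1% of values 84.1% included a poorly covered bin. In the balanced signal a different ratio was taken, the mean value per pair over the mean of all pairs on different autosomes. It was 37.8 for poorly covered bins 1 Mb apart, where 1 contact on chromosome 12 had a value of 843. Between poorly covered bins on different autosomes it was 0.846. Leaving out each autosome moved the observed over expected contacts between different autosomes between 0.956 and 1.02.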

Other observations

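On chromosome X, which the comparisons above leave aside, 57 of 167 bins (34.1%) fell under the same threshold and 7 of these had no value. The bin of X from 129000001 to 130000000 had 5 partners, and its factor was 1.88 times as large when the poorly covered autosomal bins were left out before balancing.

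The pairs of bins on different autosomes with the most contacts and a poorly covered bin had 5 each. They joined chromosome 2 from 85000001 to 86000000, in the olfactory receptor cluster, with chromosome 1 from 47000001 (0.231 expected), and chromosome 2 from 110000001 with chromosome 4 from 148000001 (0.168 expected). The other two joined chromosome 11 from 88000001 with chromosome 13 from 110000001 (0.230 expected) and chromosome 16 from 41000001 with chromosome 14 from 24000001 (0.344 expected). They were picked as the highest of many pairs, so no test is given.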
